A study of Homo sapiens with 372 samples.

Results

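Cells take up amino acids through membrane transporters of the solute carrier (SLC) families, and 10 genes of this kind are described here across 6 conditions: SLC7A11, SLC7A5, SLC3A2, SLC7A1, SLC1A5, SLC1A4, SLC38A1, SLC38A2, SLC7A6 and SLC6A9. They were chosen by symbol, and all 10 were found among the 9664 genes of the expression table. A2780, an established line of human ovarian cancer cells, was used throughout. The cells were a control, cells given the microtubule stabilizer paclitaxel at 5 nM for 16 or 48 h, cells given the cyclooxygenase inhibitor celecoxib at 75 µM for 2 or 16 h, and cells given both drugs at these doses for 16 h (the combination). All cells were of the same line, captured on the Fluidigm C1 system and sequenced by Smart-seq2, which copies polyA-tailed RNA over its full length.

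The table held 338 cells: 46 of the control, 56 and 53 after 16 and 48 h of paclitaxel, 63 and 61 after 2 and 16 h of celecoxib, and 59 of the combination. In the same order 57, 58, 65, 66, 67 and 59 cells had been listed before the study removed those with poorly detected housekeeping genes. The loss was thus uneven, and all cells of the combination stayed. No replicate culture is named, and the sample descriptions give each condition 1 code of its own, so a condition counts as 1 sample, cells are not replicates of it, and no test between conditions was made. The SD values below are spreads over cells. Expression is given as the E-value, log2(N/10 + 1), in which N stands for the TPM of a gene (its length-normalised share of a cell's transcripts) after scaling to a spike-in RNA of the same cell. N is per transcript length, so levels can be compared between genes. Read numbers per cell are unknown here, and the median number of genes with an E-value above 0 was 6126 to 6630 by condition. The total of N per cell itself differed between conditions. Relative to control, its median on the log2 scale was -0.99 and -0.64 after 16 and 48 h of paclitaxel, -0.76 and -1.52 after 2 and 16 h of celecoxib, and 0.49 in the combination. Each difference is therefore also given after scaling every cell to the same total. That scaling moved the median difference over all genes from between -0.48 and 0.33 to between -0.07 and 0.03. Of 7 epithelial and Müllerian markers only KRT18 was among the genes analysed here, with an E-value above 0 in 23.9 to 36.5% of cells. None of 6 blood and none of 4 endothelial markers was, and of 5 fibroblast markers COL1A2, COL3A1 and LUM were, COL3A1 being present in 57.4 to 83.0% of cells.

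Several of the 10 proteins work as pairs. SLC3A2 (CD98 heavy chain) carries no substrate itself but brings a light chain to the cell surface, to which it is joined by a disulphide bond. Its light chains here are SLC7A11 (xCT), which imports cystine in exchange for glutamate and so feeds glutathione synthesis, SLC7A5 (LAT1), which imports leucine and other large neutral amino acids, and SLC7A6, which exchanges cationic for neutral amino acids. SLC7A1 imports arginine and lysine, SLC1A5 exchanges glutamine and other neutral amino acids, SLC1A4 carries serine, alanine and cysteine, SLC38A1 and SLC38A2 take up glutamine and alanine with sodium, and SLC6A9 takes up glycine. When amino acids run short or the endoplasmic reticulum is stressed, phosphorylated eIF2α favours translation of the factor ATF4, which binds C/EBP-ATF response elements in the control regions of many of these genes. SLC7A11 is also a known target of NRF2 (gene NFE2L2), which binds antioxidant response elements.

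The core letters of both elements were searched, on both strands, in RefSeq promoter windows (GRCh38.p14, 250 bases before to 50 after a start site), since the genes are known to share these factors. Of the 10 genes, 9 had entries, with 15 windows in all (SLC7A11 had none). TGATGNAA, the core of the C/EBP-ATF element, was found in 5 of the 15 windows, belonging to 5 of the 9 genes, and in 3.62% of all 35116 windows. TGACNNNGC, the antioxidant response core, was also found in 5 windows of 5 genes, and in 13.3% of all windows. No matches of the 2 patterns overlapped in these windows. The 5 windows with the C/EBP-ATF core are shown by the match and its flanks, 5′ to 3′ on the strand of the gene, with the match in capitals. Bases are counted from the start site, without a base 0, and all windows shown but that of SLC7A1 belong to start sites inside the annotated gene. The match reads on the gene's own strand in SLC1A5, SLC38A1 and SLC7A1 and on the opposite strand in SLC3A2 and SLC1A4.
SLC3A2, chr11:62881726-62881748, + strand, match from 38 bases into the transcript: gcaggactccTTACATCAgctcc
SLC1A5, chr19:46784894-46784921, - strand, match from base -97: aggaagtggcTGATGCAAgctgtccagg
SLC1A4, chr2:64989382-64989409, + strand, match from base -7: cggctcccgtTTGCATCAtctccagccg
SLC38A1, chr12:46266503-46266530, - strand, match from base -4: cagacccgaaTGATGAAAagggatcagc
SLC7A1, chr13:29595664-29595691, - strand, match from 8 bases into the transcript: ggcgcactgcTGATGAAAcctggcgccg
SLC3A2 and SLC7A1 held the antioxidant response core as well, in the same window, and both are shown the same way.
SLC3A2, chr11:62881652-62881680, + strand, match from base -37: cgagggtgggTGACTCAGCgtcctccttc
SLC7A1, chr13:29595755-29595783, - strand, match from base -85: tgcccggcggTGACGCGGCcgagcgggcc
These matches describe letters, and the window says nothing of binding. SLC38A2, SLC7A5, SLC7A6 and SLC6A9 had no match to the first pattern in these windows.

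SLC7A11, the cystine transporter, was low in control cells and present in most cells given celecoxib. Its mean E-value (hg38, chr4:138164097-138242349, - strand) was 0.18 ± 0.44 (SD, 46 cells) in control, 0.38 ± 0.73 and 0.53 ± 0.84 after 16 and 48 h of paclitaxel, 1.32 ± 0.96 and 1.20 ± 0.87 after 2 and 16 h of celecoxib, and 1.33 ± 1.37 in the combination. The 3 conditions with celecoxib were the highest, at nearly the same mean, but single cells of every condition reached down to 0. An E-value above 0 was found in 12 of 46 control cells (26.1%, exact Clopper-Pearson 95% interval 14.3 to 41.1%), 30.4% and 43.4% of cells after 16 and 48 h of paclitaxel, 54 of 63 cells after 2 h of celecoxib (85.7%, 74.6 to 93.3%), 58 of 61 after 16 h (95.1%, 86.3 to 99.0%) and 38 of 59 in the combination (64.4%, 50.9 to 76.4%). These intervals cover counting error only. The share was lower in the combination than with celecoxib alone, with intervals that overlap for 2 h of celecoxib. Counting only E-values above 1, the shares were 8.70% in control, 61.9 and 59.0% after 2 and 16 h of celecoxib and 52.5% in the combination. The spread over cells was widest in the combination, whose highest cell had 4.51, against 3.57 and 3.15 after 2 and 16 h of celecoxib and 1.78 in control. Above the highest control cell lay 4 and 8 cells after 16 and 48 h of paclitaxel, 20 and 18 after 2 and 16 h of celecoxib, and 24 in the combination.

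Against control, the difference in mean E-value of SLC7A11 was 1.13 after 2 h of celecoxib, 1.02 after 16 h and 1.15 in the combination, and 1.17, 1.54 and 0.71 at the same total per cell. In linear terms its mean N was 2.06 in control, 21.0 and 17.6 after 2 and 16 h of celecoxib and 29.7 in the combination, which are ratios of 10.2, 8.51 and 14.4 to a control mean that rests on 12 cells. With paclitaxel alone the difference was 0.20 at 16 h and 0.35 at 48 h (0.26 and 0.38 at the same total). Both lie inside the limit of log2 of 1.5 (0.585) beyond which a gene is counted here as higher or lower. In linear terms the mean N was 5.37 and 7.74 there, or 2.60 and 3.75 times control, so the E-value scale understates these changes at a low level. An antisense gene, SLC7A11-AS1, overlaps SLC7A11, and without strand information the reads of overlapping genes cannot be told apart. SLC7A11-AS1 was not analysed here.

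**Figure D1:**
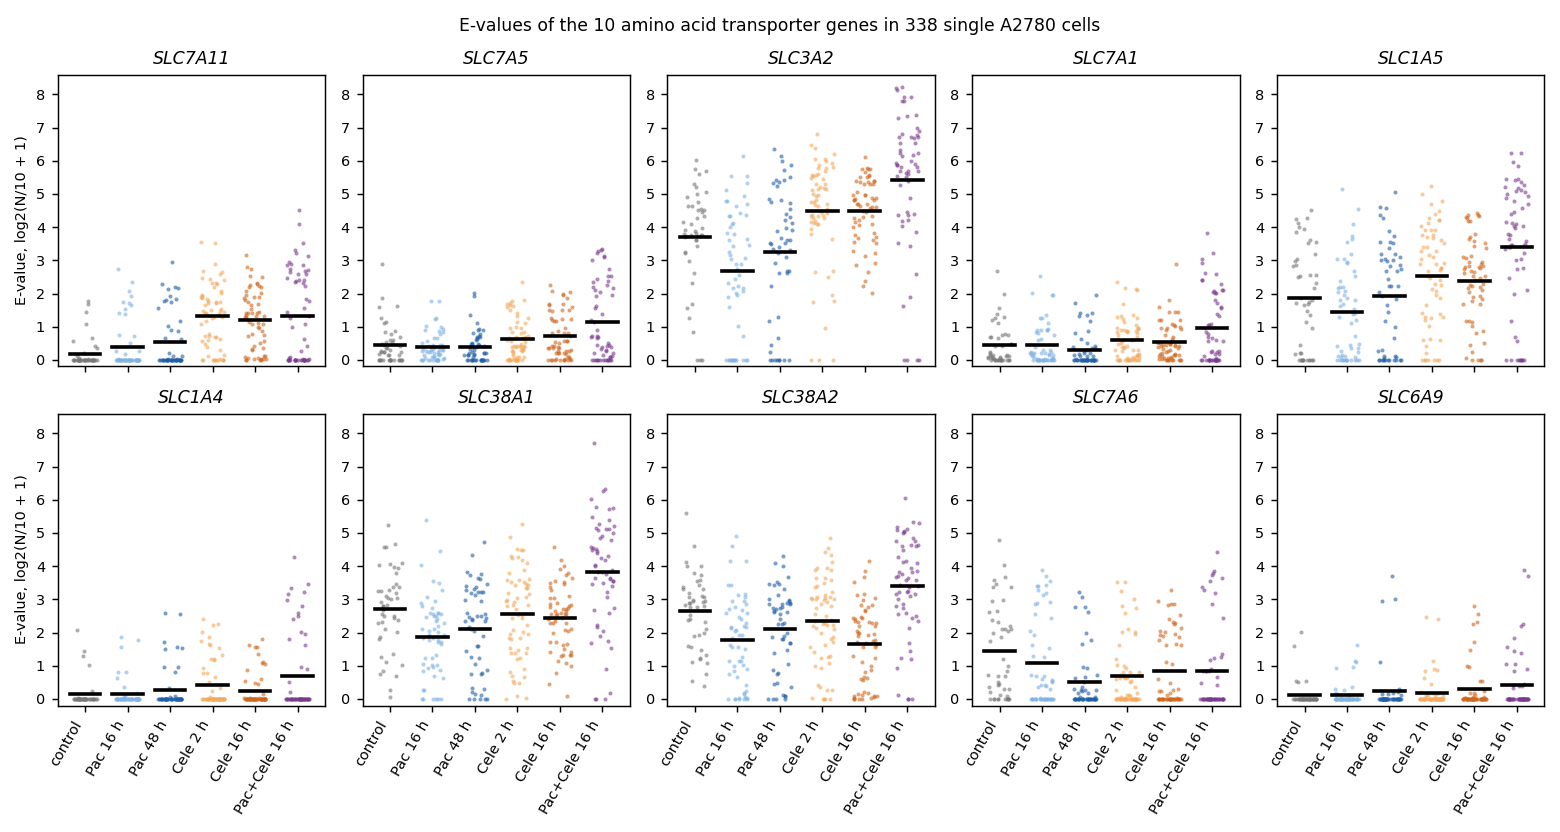
E-values, log2(N/10 + 1), of the 10 transporter genes in 338 A2780 cells by condition (Pac, paclitaxel, Cele, celecoxib), 1 point per cell, with black lines at the mean. SLC3A2 had the highest mean in every condition, and the SLC7A11 points leave 0 mainly in the 3 conditions with celecoxib.

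SLC3A2, the heavy chain shared by the light chains, was the most abundant of the 10 transcripts in every condition. Its mean (chr11:62856004-62888880, + strand) was 3.69 ± 1.503 in control, 2.66 ± 1.86 and 3.25 ± 1.97 after 16 and 48 h of paclitaxel, 4.47 ± 1.57 and 4.49 ± 0.98 after 2 and 16 h of celecoxib, and 5.42 ± 2.09 in the combination. Paclitaxel at 16 h was lowest and the combination highest, with overlapping cells throughout. The medians were 3.85, 2.90, 3.52, 4.75, 4.69 and 5.87 in the same sequence of conditions, and the highest cells had 6.03, 6.15, 6.36, 6.82, 6.12 and 8.23. In the combination 25 of 59 cells exceeded the highest control cell, compared with 6 of 63 after 2 h of celecoxib and 1 of 61 after 16 h. All 61 cells after 16 h of celecoxib had SLC3A2, the lowest at an E-value of 2.01, while 76.8% of cells did after 16 h of paclitaxel and 93.5% of control cells.

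The difference of SLC3A2 from control was -1.03 after 16 h of paclitaxel, past the limit, and -0.44 after 48 h. When every cell was scaled to the same total these were -0.43 and 0.14, both inside it. After 2 and 16 h of celecoxib it was 0.78 and 0.80, and 1.34 and 2.16 at the same total. The combination gave 1.73, and 1.12 at the same total. The mean N of SLC3A2 was 180 in control, 316 and 263 after 2 and 16 h of celecoxib and 804 in the combination, or 1.76, 1.46 and 4.47 times control.

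SLC7A5, the leucine transporter, was weaker and changed less than SLC3A2 on the E-value scale. In linear terms its mean N was 1.27, 1.60 and 3.87 times control after 2 and 16 h of celecoxib and in the combination. With paclitaxel alone it was 0.69 and 0.73 times control at 16 and 48 h. Its mean E-value (chr16:87830023-87869507, - strand) was 0.46 ± 0.61 in control, 0.39 ± 0.43 and 0.39 ± 0.47 after 16 and 48 h of paclitaxel, 0.62 ± 0.60 and 0.73 ± 0.68 after 2 and 16 h of celecoxib, and 1.15 ± 1.15 in the combination. The combination was the only condition past the limit as deposited, with a difference of 0.69, but 0.31 at the same total, where 16 h of celecoxib was past it instead with 0.74. SLC7A5 was detected in 65.2 to 85.2% of cells of each condition. Reads shared with its pseudogene copies could be placed on either, so its level is uncertain.

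SLC7A6 was lower in all 5 treatments on the deposited scale, and in 4 of them at the same total per cell. Its mean E-value (chr16:68264516-68301823, + strand) was 1.44 ± 1.38 in control, 1.08 ± 1.34 and 0.50 ± 0.90 after 16 and 48 h of paclitaxel, 0.70 ± 1.02 and 0.85 ± 1.08 after 2 and 16 h of celecoxib, and 0.83 ± 1.35 in the combination. Control was the highest, and all 5 treatments lay below it. The share of cells with SLC7A6 was 78.3% in control (63.6 to 89.1%) and 39.0 to 58.9% in the treatments, lowest in the combination (39.0%, 26.5 to 52.6%). The differences from control were -0.36, -0.94, -0.74, -0.59 and -0.61 in the order above. With the same total in every cell they were -0.03, -0.61, -0.45, 0.01 and -0.58, so the direction after 16 h of celecoxib turned and, of the 5 treatments, only 48 h of paclitaxel stayed past the limit. In the combination, where 30.4% of all genes were past the limit upward, SLC7A6 was among the 1.57% of genes with the lowest differences. SLC7A6OS, a protein-coding gene on the opposite strand, overlaps it. The mean E-value of SLC7A6OS was 1.42 in control, 0.92 and 0.99 after 16 and 48 h of paclitaxel, 0.82 and 0.67 after 2 and 16 h of celecoxib, and 1.68 in the combination, so it too was below control with either drug alone. Its differences from control were -0.15, -0.09, -0.31, -0.24 and -0.03 at the same total. The part of its reads in the level of SLC7A6 was not tested, and Pearson's r between both genes over the cells of a condition was -0.15 to 0.22.

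**Figure D2:**
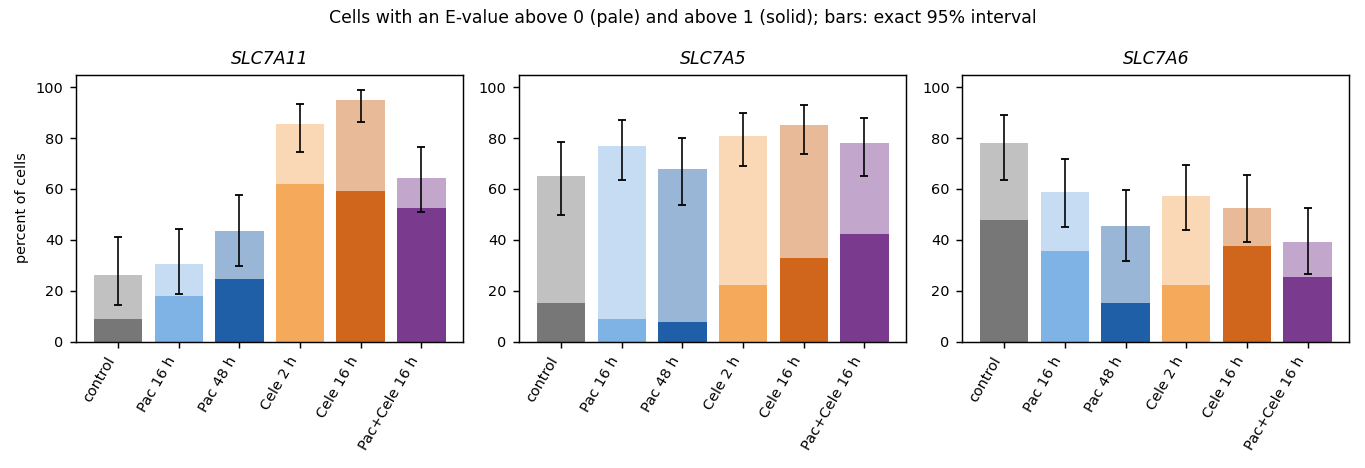
Percent of cells with an E-value above 0 (pale bars, with exact 95% Clopper-Pearson intervals) and above 1 (solid bars) for SLC7A11, SLC7A5 and SLC7A6 in the 6 conditions (Pac, paclitaxel, Cele, celecoxib). SLC7A11 goes from 26.1% of control cells to 95.1% after 16 h of celecoxib, and SLC7A6 from 78.3% of control cells to 39.0% in the combination.

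The make-up of the 3 light-chain transcripts therefore differed between conditions. Of their summed mean N, SLC7A6 was 82.0% in control and SLC7A11 4.95%. SLC7A11 was 16.0% and 38.1% after 16 and 48 h of paclitaxel, 51.9% and 43.1% after 2 and 16 h of celecoxib, and 40.9% in the combination. For the 6 conditions in the order control, paclitaxel, celecoxib and combination these shares were 5.01, 16.4, 32.3, 53.4, 43.1 and 41.7% at the same total per cell. SLC7A11 was the highest of the 3 light chains in 4 of 46 control cells, 35 of 63 and 27 of 61 cells after 2 and 16 h of celecoxib, and 26 of 59 of the combination. SLC7A6 was the highest in 29 of 46 control cells. Among the 10 genes SLC7A11 stood at rank 8 by mean E-value in control and after 16 h of paclitaxel, and at rank 5 in the 4 other conditions.

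Within the treated conditions, cells with more SLC3A2 tended to have more SLC7A11. Pearson's r, at the same total per cell, was 0.11 over 46 control cells, 0.48 and 0.52 over 56 and 53 cells after 16 and 48 h of paclitaxel, 0.25 and 0.34 over 63 and 61 cells after 2 and 16 h of celecoxib, and 0.43 over 59 cells of the combination. Spearman's rho ran from 0.17 to 0.57. For SLC3A2 with SLC7A5, r was 0.19 to 0.47, and with SLC7A6 it was 0.00 to 0.26. The cells of a condition are 1 sample, and differences in depth between them can enter the coefficients, which are given as a description. The part of depth was not tested. In 5 cells in all, 1 after 48 h of paclitaxel, 2 after 2 h of celecoxib and 2 of the combination, SLC7A11 was detected without SLC3A2.

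**Figure D3:**
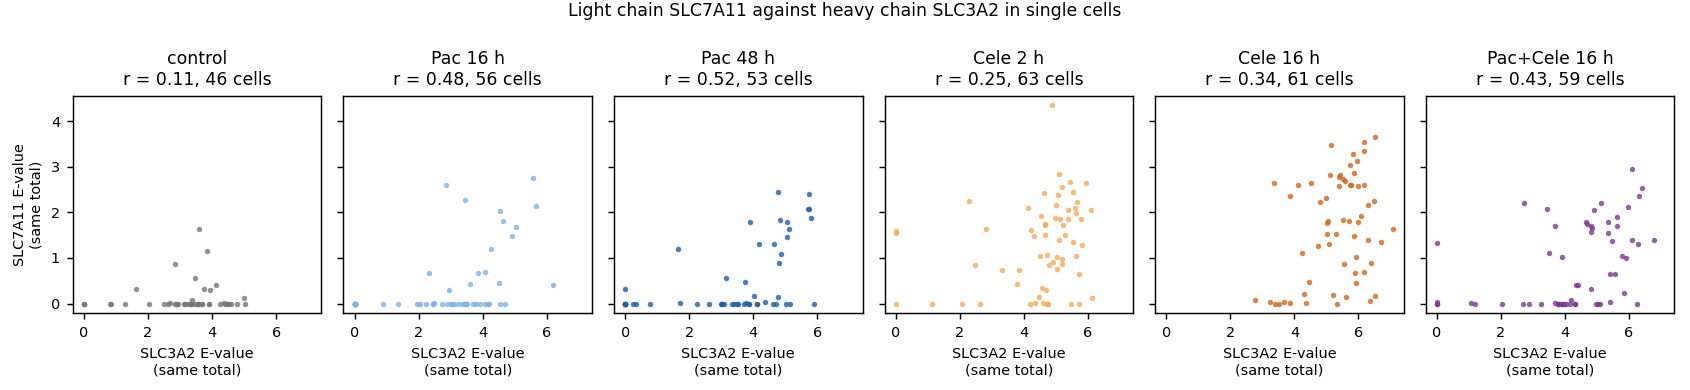
SLC7A11 E-value (vertical) against SLC3A2 E-value (horizontal), both after scaling to the same total per cell, 1 point per cell, with Pearson's r by condition (Pac, paclitaxel, Cele, celecoxib). The coefficient runs from 0.11 in control to 0.52 after 48 h of paclitaxel, and many cells lie on the horizontal axis, where SLC7A11 is 0.

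SLC1A5, the neutral amino acid exchanger that carries glutamine, was higher in the 3 conditions with celecoxib. Its mean E-value (chr19:46774883-46788594, - strand) was 1.86 ± 1.52 in control, 1.44 ± 1.40 and 1.92 ± 1.60 after 16 and 48 h of paclitaxel, 2.52 ± 1.51 and 2.39 ± 1.27 after 2 and 16 h of celecoxib, and 3.42 ± 1.91 in the combination. Cells at 0 occurred in every condition. The difference from control was 0.65 after 2 h of celecoxib, 0.53 after 16 h, just inside the limit, and 1.55 in the combination. Scaled to the same total it was 1.01, 1.53 and 0.97, all past the limit. With paclitaxel alone it was -0.42 at 16 h and 0.06 at 48 h (-0.02 and 0.41 at the same total).

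SLC1A4, its relative that carries serine, was detected in few cells. Its mean E-value (chr2:64988477-65023865, + strand) was 0.13 ± 0.43 in control, 0.15 ± 0.42 and 0.28 ± 0.65 after 16 and 48 h of paclitaxel, 0.42 ± 0.72 and 0.23 ± 0.49 after 2 and 16 h of celecoxib, and 0.69 ± 1.21 in the combination. The largest difference, 0.56 in the combination, was just inside the limit and 0.30 at the same total. In linear terms its mean N was 1.04 and 2.37 times control after 16 and 48 h of paclitaxel. It was 3.37 and 1.59 times control after 2 and 16 h of celecoxib, and 9.59 times in the combination. The control mean rests on 6 cells. SLC1A4 was detected in 13.0% of control cells, 33.3% after 2 h of celecoxib and 30.5% in the combination. In the combination 10 of 59 cells lay above the highest control cell, although the median there, as in every condition, was 0.

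SLC38A1 and SLC38A2, the sodium-coupled carriers, had lower means than control with either drug alone and higher ones with both on the deposited scale. The mean E-value of SLC38A1 (chr12:46183063-46270017, - strand) was 2.71 ± 1.22 in control, 1.87 ± 1.18 and 2.10 ± 1.33 after 16 and 48 h of paclitaxel, 2.56 ± 1.33 and 2.44 ± 0.95 after 2 and 16 h of celecoxib, and 3.82 ± 1.69 in the combination. That of SLC38A2 (chr12:46358188-46372773, - strand) was 2.64 ± 1.11, 1.77 ± 1.31, 2.09 ± 1.23, 2.36 ± 1.29, 1.64 ± 1.16 and 3.40 ± 1.46 in the same sequence of conditions. The cells of all conditions overlapped. Against control, SLC38A1 was -0.83 and -0.60 after 16 and 48 h of paclitaxel and 1.11 in the combination, but -0.26, -0.14 and 0.52 at the same total, none past the limit. SLC38A2 was -0.87 after 16 h of paclitaxel, -0.996 after 16 h of celecoxib and 0.76 in the combination, but -0.36, -0.11 and 0.16 at the same total.

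The pair parted after 16 h of celecoxib. There SLC38A1 was at -0.27 as deposited and 0.88 at the same total, above 97.5% of all genes, while SLC38A2 was at -0.996 and -0.11. Between 2 and 16 h of celecoxib SLC38A2 was lower by 0.71 in mean E-value (-0.71), the only one of the 10 genes past the limit as deposited, where 0.528% of all genes were past it upward and 19.3% downward. Scaled to the same total that difference was -0.20, and 1 gene was past the limit, SLC3A2, higher by 0.82, beside 7.87% of all genes upward and 3.9% downward.

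SLC7A1 and SLC6A9 stayed inside the limit in all 5 comparisons with control on both scales. Both genes were weak, where the E-value scale understates changes. In linear terms the ratios of mean N to control ran from 0.645 to 3.21 for SLC7A1 and from 0.953 to 5.68 for SLC6A9. The highest ratio of each was in the combination. The mean E-value of SLC7A1 (chr13:29509414-29595688, - strand) was 0.44 ± 0.61 in control, 0.45 ± 0.61 and 0.31 ± 0.51 after 16 and 48 h of paclitaxel, 0.60 ± 0.61 and 0.54 ± 0.57 after 2 and 16 h of celecoxib, and 0.97 ± 1.06 in the combination. The combination differed from control by 0.53 (0.22 at the same total). The mean E-value of SLC6A9 (chr1:43991500-44031467, - strand) was 0.11 ± 0.39, 0.13 ± 0.34, 0.22 ± 0.76, 0.17 ± 0.48, 0.28 ± 0.68 and 0.41 ± 0.86 in the same sequence. It was detected in 10.9% of control cells and at most in 31.1% of cells, after 16 h of celecoxib.

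The study kept genes by their detection, requiring E-values above 0 in over 30% of cells in some condition. Of the 10 transporters 7 met this in every condition. SLC7A11 met it in 5 conditions, all but control, SLC1A4 in 2 (2 h of celecoxib and the combination) and SLC6A9 in 1 (16 h of celecoxib), so these 3 are listed because of the conditions where they are higher. For each gene the 6 conditions were ordered by mean E-value, which gives 50 neighbouring pairs. In 0 of these pairs was the gap larger than the smaller SD over cells. Neighbours in such an order are the closest pairs, so this count does not cover conditions further apart. For SLC7A11, 2 h of celecoxib exceeded control by 1.13, more than the control SD of 0.44. For SLC3A2, the combination exceeded control by 1.73, more than the control SD of 1.503.

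**Figure D4:**
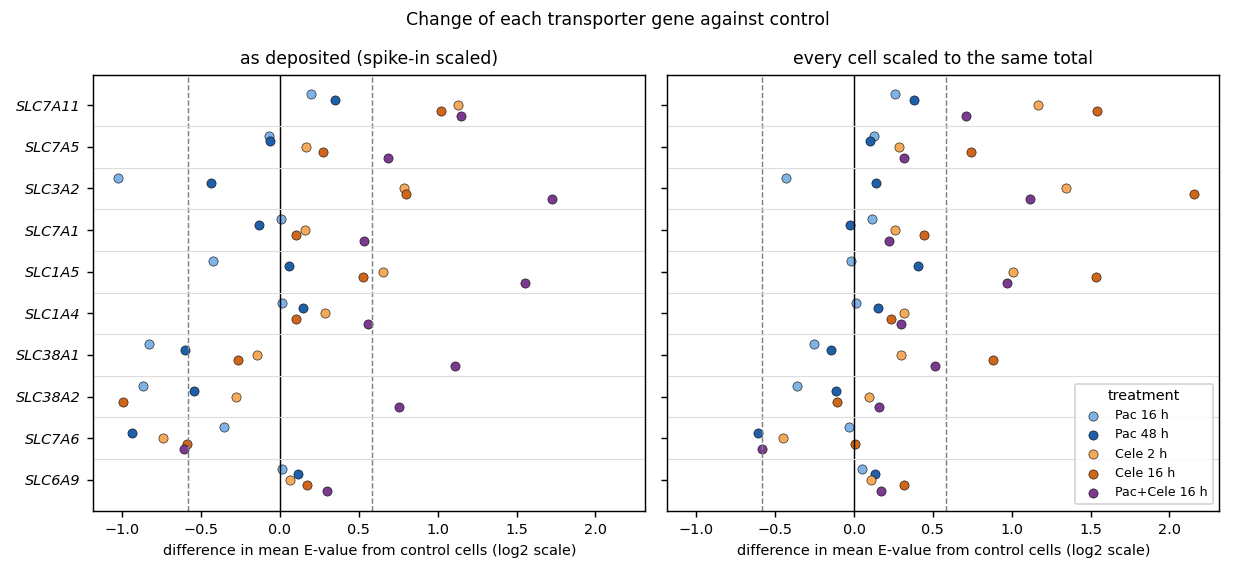
Difference in mean E-value from control for the 10 genes in the 5 treatments (Pac, paclitaxel, Cele, celecoxib), as deposited (left) and after scaling every cell to the same total (right), with dashed lines at the limit of log2 of 1.5 on each side of 0. SLC7A11, SLC3A2 and SLC1A5 lie right of 0 in all 3 conditions with celecoxib on both scales. SLC38A1 moves from left to right of 0 with the scale after 2 and 16 h of celecoxib, and SLC38A2 after 2 h only. SLC7A5 also changes side after 16 and 48 h of paclitaxel, SLC3A2 after 48 h of paclitaxel and SLC7A6 after 16 h of celecoxib.

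Counted together, no transporter was past the limit upward with paclitaxel alone, and SLC7A11 and SLC3A2 were in each condition with celecoxib. All comparisons with control share the same control cells. After 16 h of paclitaxel 0 genes were higher and 3 lower (SLC3A2, SLC38A1 and SLC38A2), where 0.0931% and 37.3% of all genes were. After 48 h it was 0 and 2 (SLC7A6 and SLC38A1), against 0.921% and 26.6%. With equal totals the counts were 0 and 0 at 16 h (1.4% and 10% of all genes) and 0 and 1 at 48 h (3.28% and 5.77%). The control means of SLC7A11 (0.18), SLC7A5 (0.46), SLC7A1 (0.44), SLC1A4 (0.13) and SLC6A9 (0.11) lay below the limit. These genes could therefore not be counted as lower on either scale, even at an E-value of 0. How the shares of lower transporters compare with those of all genes was for this reason not tested.

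After 2 h of celecoxib 3 of the 10 genes were higher (SLC7A11, SLC3A2 and SLC1A5) and 1 lower (SLC7A6), where 1.12% and 25.7% of all genes were. After 16 h 2 were higher (SLC7A11 and SLC3A2) and 2 lower (SLC38A2 and SLC7A6), against 0.383% and 43.9%. With equal totals 3 were higher and 0 lower at 2 h (3.31% and 8.11% of all genes), and 5 higher (SLC3A2, SLC7A11, SLC1A5, SLC38A1 and SLC7A5) and 0 lower at 16 h (7.38% and 7.95%). At 2 h the differences of SLC7A11, SLC3A2 and SLC1A5 exceeded those of 99.8, 99.5 and 99.2% of all genes as deposited. The median of the 10 genes was 0.16 at 2 h and 0.14 at 16 h, beside -0.26 and -0.48 over all genes, and 0.29 and 0.59 at the same total, beside -0.02 and 0.03. As a part of the cell, the summed N of the 10 genes was a median of 265 TPM of the cell's listed genes in control (quartiles 196 and 318). After 2 h of celecoxib it was 540 (402 and 702) and after 16 h 861 (606 and 1049). This part also rises when the total of the cell falls, and that total was at -0.76 and -1.52 on the log2 scale relative to control. As deposited, the mean N of SLC3A2, the most abundant of the 10, was 180 in control, 316 after 2 h and 263 after 16 h.

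In the combination 6 genes were higher (SLC3A2, SLC1A5, SLC7A11, SLC38A1, SLC38A2 and SLC7A5) and 1 lower (SLC7A6), where 30.4% and 1.76% of all genes were. Scaled to equal totals 3 were higher (SLC3A2, SLC1A5 and SLC7A11) and 0 lower, with 5.95% and 5.79% of all genes. SLC3A2 and SLC1A5 exceeded 99.1 and 98.4% of all genes as deposited and 99.3 and 98.7% at the same total. The median of the 10 genes was 0.72 beside 0.33 over all genes, and 0.31 beside 0.02 at the same total. Their sum as a part of the cell was a median of 499.6 TPM, between that of control and that of celecoxib alone at 16 h. That order is one of parts and not of amounts, since the total of the cell was above control here (0.49 on the log2 scale). As deposited, the mean N of SLC3A2 was highest in the combination (804).

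**Figure D5:**
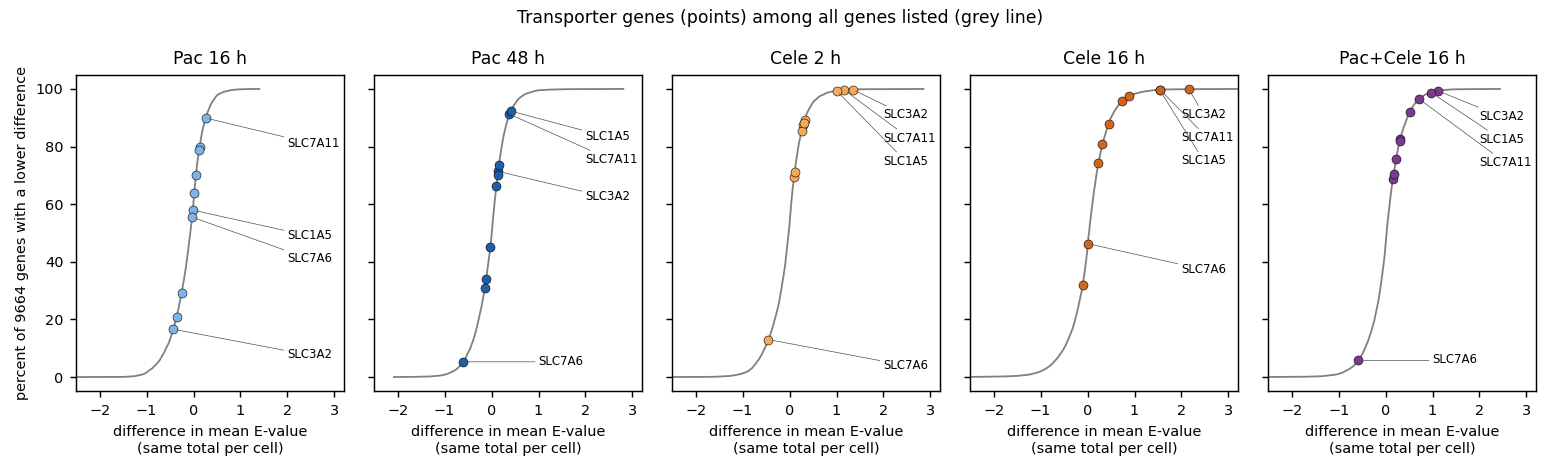
Percent of 9664 genes with a lower difference from control (vertical) against the difference in mean E-value at the same total per cell (horizontal), for each treatment (Pac, paclitaxel, Cele, celecoxib). The grey line is all genes, drawn within the axis range, and points are the 10 transporters. SLC3A2, SLC7A11 and SLC1A5 sit at the upper end in the 3 panels with celecoxib, and SLC7A6 at the lower end after 48 h of paclitaxel and in the combination.

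Adding celecoxib to paclitaxel for 16 h was compared with paclitaxel alone at the same dose and time. SLC3A2 was higher by 2.75, SLC1A5 by 1.98, SLC38A1 by 1.94, SLC38A2 by 1.63, SLC7A11 by 0.95 and SLC7A5 by 0.76. These 6 of 10 stand beside 62.4% of all genes past the limit upward, and 0 of 10 beside 0.031% downward. With equal totals SLC3A2 (1.55), SLC1A5 (0.99) and SLC38A1 (0.77) were past it, 3 of 10 beside 9.56% of all genes, and SLC7A11 was not (0.45), while 0 of 10 were lower beside 1.63%. SLC7A6 was at -0.25 as deposited and -0.55 at the same total, inside the limit, with 0.166% of all genes lower as deposited. The sample descriptions number the libraries as sequenced, and in blocks of 96 of these numbers 34 cells of the combination fell together with the 56 cells of paclitaxel alone. In these cells the differences were 2.60 for SLC3A2, 1.79 for SLC1A5 and 0.87 for SLC7A11, and 1.36, 0.85 and 0.38 at the same total.

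Adding paclitaxel to celecoxib for 16 h gave answers that depended on the scale. As deposited, SLC38A2 was higher in the combination than with celecoxib alone by 1.75, SLC38A1 by 1.38, SLC1A5 by 1.03 and SLC3A2 by 0.92, 4 of 10 where 66% of all genes were past the limit upward and 0.0414% downward. SLC7A11 differed by 0.13, more than 7.11% of all genes did. With equal totals 0 genes were higher (5.03% of all genes) and 3 were lower, SLC3A2 (-1.04), SLC7A11 (-0.83) and SLC7A6 (-0.59), beside 4.39% of all genes. SLC38A1 and SLC1A5 were also below celecoxib alone on that scale (-0.37 and -0.56), within the limit. In the block shared by 25 cells of the combination and the 61 cells of celecoxib alone, SLC3A2 differed by 1.13 as deposited and -0.79 at the same total, and SLC7A11 by 0.25 and -0.74.

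Between 16 and 48 h of paclitaxel, SLC3A2 was higher at 48 h by 0.59, just past the limit (0.57 at the same total), 1 of 10 beside 7.88% of all genes upward and 0 of 10 beside 0.352% downward. SLC7A6 differed by -0.58, just inside the limit on both scales, and 0.362% of all genes had a lower difference. With equal totals 0 of 10 genes were past the limit, beside 6.18% of all genes upward and 1.18% downward. Control and 31 of the 53 cells after 48 h of paclitaxel shared a block of sequencing numbers. There SLC7A6 differed from control by -0.92 (-0.65 at the same total) and SLC7A11 by 0.42 (0.40). For the other comparisons with control no block held both conditions, so that condition and block cannot be told apart.

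The authors' deposited annotation assigns each cell to a state learned from the same expression values, so the states are a description. Within 16 h of paclitaxel, 23 cells were control-like, 31 suppressive and 2 in the activation state, with a mean SLC3A2 E-value of 3.66, 1.77 and 4.98 (3.54, 2.09 and 3.26 at the same total). After 2 h of celecoxib SLC7A11 was 1.60 in 26 control-like, 0.97 in 33 suppressive and 2.30 in 4 activation cells (1.45, 1.14 and 1.53 at the same total), all above the 0.19 of the 45 control-like control cells. After 48 h of paclitaxel SLC7A11 was 0.74 in 28 control-like and 0.30 in 25 suppressive cells (0.63 and 0.37 at the same total). It was detected in 42.9% and 44% of them. SLC7A6 was 0.46 and 0.54 there (0.38 and 0.66 at the same total).

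Genes that respond to amino acid shortage were also counted. Of 16 in a list of the amino acid response 14 were among the genes analysed. After 2 h of celecoxib 8 of the 14 were higher and 2 lower than control (beside 1.12% and 25.7% of all genes), after 16 h 8 and 3 (0.383% and 43.9%), and in the combination 11 and 1 (30.4% and 1.76%). With paclitaxel 0 and 4 were at 16 h (0.0931% and 37.3%), and 3 and 1 at 48 h (0.921% and 26.6%). EIF2S1 was lower in all 4 single-drug conditions, and in the combination it was at -0.34 (-0.99 at the same total, past the limit). PPP1R15A, a phosphatase subunit that reverses eIF2α phosphorylation, was at -0.67, -0.62 and -0.60 in the 3 conditions with celecoxib (-0.43, -0.03 and -0.59 at the same total). With paclitaxel alone PPP1R15A was at -1.32 after 16 h and -0.55 after 48 h (-1.02 and -0.28 at the same total), so its fall was not particular to celecoxib. The 3 higher after 48 h of paclitaxel were ASNS, CHAC1 and DDIT4. With equal totals these counts were 10 and 1, 10 and 1, 7 and 2, 1 and 2, and 4 and 1. Of all genes, in the same order, 3.31, 7.38, 5.95, 1.4 and 3.28% were higher and 8.11, 7.95, 5.79, 10 and 5.77% lower. ASNS, which makes asparagine, differed from control by 2.36, 0.97 and 3.11 in the 3 conditions with celecoxib in that order (2.85, 2.21 and 2.40 at the same total). CHAC1, which breaks down glutathione, differed by 1.94, 1.39 and 1.99 and TRIB3, a feedback inhibitor of ATF4, by 1.35, 2.29 and 2.00. The highest mean difference over the 5 treatments was that of DDIT4, an inhibitor of mTORC1 (2.21 at the same total), and the lowest that of EIF2S1, which encodes eIF2α itself (-1.05). ATF4 mRNA differed by 0.55, -0.15 and 1.05 (1.09, 1.18 and 0.40 at the same total).

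The genes most like SLC7A11, SLC3A2 and SLC7A5 over single cells were sought next. Likeness was Pearson's r over 338 cells after subtracting each condition's mean, at the same total per cell, among 6548 genes found in at least 50% of cells. For SLC7A11 they were ASNS (0.40), the seryl-tRNA synthetase gene SARS (0.38) and EIF4EBP1 (0.37), which encodes an inhibitor of cap-dependent translation. For SLC3A2 they were EIF4EBP1 (0.51), ATF4 (0.47) and the tyrosyl-tRNA synthetase gene YARS (0.46). For SLC7A5 the coefficients were lower: HSPA9, a mitochondrial chaperone, 0.25, XBP1, a factor of the unfolded protein response, 0.24, and CEBPG 0.23. Within single conditions the coefficients varied. For SLC7A11 they ran from -0.13 to 0.59 with ASNS, 0.08 to 0.64 with SARS and 0.13 to 0.58 with EIF4EBP1. For SLC3A2 they ran from 0.39 to 0.60 with EIF4EBP1, 0.04 to 0.60 with ATF4 and 0.39 to 0.55 with YARS. For SLC7A5 they ran from -0.04 to 0.42 with HSPA9, 0.06 to 0.41 with XBP1 and 0.02 to 0.36 with CEBPG. Whether differences in depth between cells enter these coefficients was not tested.

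Genes linked to the use of cystine were counted in the same way. Of 12 genes of cystine use and glutathione synthesis 11 were among those analysed, and 0 were higher and 5 and 7 lower than control after 2 and 16 h of celecoxib, 0 higher and 6 and 3 lower after 16 and 48 h of paclitaxel, and 5 higher (CTH, GGT1, GPX4, KEAP1 and NFE2L2) and 0 lower in the combination. Beside these counts stand 25.7% and 43.9% of all genes lower with celecoxib, 37.3% and 26.6% with paclitaxel, and 30.4% higher in the combination. Only 0.0931 to 1.12% of all genes were higher with either drug alone, and 1.76% were lower in the combination. Scaled to the same total, at most 1 was higher and at most 2 lower in any treatment, beside 1.4 to 7.38% and 5.77 to 10% of all genes. GPX4, the glutathione peroxidase that acts on lipid peroxides, had the highest mean difference over the treatments at the same total (0.36), and GCLM, the modifier subunit of the enzyme of the first step of glutathione synthesis, the lowest (-0.76). GCLM differed from control by -1.25, -1.43 and -0.29 after 2 and 16 h of celecoxib and in the combination (-0.90, -0.74 and -0.58 at the same total), beside 1.13, 1.02 and 1.15 for SLC7A11. TXNRD1, a thioredoxin reductase and like GCLM a known NRF2 target, differed by -0.73, -1.12 and 0.33 as deposited but by -0.22, 0.12 and -0.29 at the same total, so that its direction turned in 2 of these conditions.

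Other transporters of amino acids, apart from SLC38A6, stayed inside the limit on the deposited scale. Of 28 in that list 11 were among the genes analysed. None was higher in any treatment on the deposited scale, beside 0.0931 to 30.4% of all genes. SLC38A6 was the only one lower, by -0.83, -1.19, -1.05 and -1.54 in the 4 single-drug conditions, beside 25.7 to 43.9% of all genes. At the same total these differences were -0.38, -0.79, -0.69 and -0.90, and in the combination SLC38A6 was at 0.19 as deposited. The control means of SLC6A6 (0.52), SLC7A2 (0.47), SLC15A4 (0.44), SLC38A7 (0.37), SLC43A1 (0.24) and SLC43A2 (0.49) lay below the limit. On the deposited scale these genes could therefore not be counted as lower at any level. SLC15A4, a lysosomal carrier of histidine and peptides, had the highest mean difference at the same total (0.11) among those found in at least 30% of the cells of every condition. SLC43A1, which did not meet this, differed by 0.02, 0.45, 0.49, 0.53 and 0.33 in the 5 treatments on that scale, inside the limit. Of 20 genes by which mTORC1 senses amino acids 16 were analysed, and 0 were higher and 4 and 7 lower after 2 and 16 h of celecoxib, 0 higher and 6 and 2 lower after 16 and 48 h of paclitaxel, and 6 higher and 0 lower in the combination. Of all genes, 25.7% and 43.9% were lower with celecoxib, 37.3% and 26.6% with paclitaxel, and 30.4% higher in the combination. With either drug alone 0.0931 to 1.12% of all genes were higher, and in the combination 1.76% were lower. With equal totals 1 of the 16 genes was past the limit upward, after 16 h of celecoxib (MLST8, beside 7.38% of all genes). Another 3 were past it downward, all after 16 h of paclitaxel (10% of all genes). The mean difference over the treatments ran from -0.17 (DEPDC5, a subunit of an inhibitor of the Rag GTPases) to 0.31 (FNIP1, a partner of folliculin).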

How the data were processed

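The authors trimmed reads with Trim Galore, quantified them in TPM by RSEM 1.3.0, which called Bowtie2, against an index of GENCODE 28 (hg38) and 3 spike-in RNAs, scaled each cell to its most abundant spike-in, and removed cells with poorly detected housekeeping genes. The deposited values are E-values on a log2 scale, log2(N/10 + 1), with 3 decimals. A difference on this scale understates the change of weakly expressed genes. N was recovered from E, and the mean E-value over cells was compared between conditions in 9 comparisons. A gene was counted as higher or lower beyond log2 of 1.5 (0.585), over all 9664 genes. Percentages of cells carry exact 95% Clopper-Pearson intervals. Doublets were not called, which would need counts.

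All 10 genes are named. From each list the genes named by rule are those with the highest and lowest mean difference at the same total, among genes in at least 30% of the cells of every condition, and the 3 genes most like SLC7A11, SLC3A2 and SLC7A5. CHAC1, TRIB3, TXNRD1, CTH, GGT1, KEAP1, NFE2L2, MLST8, PPP1R15A, SLC43A1 and the list values of ASNS and ATF4 were chosen after their values were seen. The genes and lists were chosen with earlier results of these data known.

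Alternatives tried were equal totals per cell, a ratio of linear means, medians, a pseudocount of 1 in place of 10, only genes in at least 50% of the cells of a condition compared, and each block of 96 sequencing numbers alone. An E-value above 1 as detection was added after seeing the data. The steps were tested on simulated data. Coordinates are from GENCODE 44. The work was done in Python 3.11.15 with scipy 1.17.1, numpy 2.4.6, pandas 2.3.3 and matplotlib 3.10.9.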

Additional observations from a re-analysis of the deposited data

How the results depend on the processing

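With 1 sample per condition no replicate could be left out and no value has a test, and the number of reads per cell, which limits the weakly expressed genes, is unknown. Scaling each cell to the same total changed the most counts of transporters past the limit. After 16 h of paclitaxel 0 were lower, after 48 h 1 was, after 2 h of celecoxib 0 were, after 16 h of celecoxib 5 were higher and 0 lower, and in the combination 3 were higher and 0 lower. The combination against paclitaxel then had 3 higher, the combination against celecoxib 0 higher and 3 lower, 48 against 16 h of paclitaxel 0 higher, and 16 against 2 h of celecoxib 1 higher and 0 lower. Of differences past the limit as deposited, that scaling turned the direction of SLC7A6 after 16 h of celecoxib (0.0056) and, in the combination against celecoxib, of SLC3A2 (-1.04), SLC1A5 (-0.56) and SLC38A1 (-0.37). It also moved the share of higher genes among all genes past the limit from 4.16 to 29.0% after 2 h of celecoxib, from 0.865 to 48.1% after 16 h, from 94.5 to 50.7% in the combination, from 0.249 to 12.2% and from 3.35 to 36.2% after 16 and 48 h of paclitaxel. With a ratio of linear means, 1 gene was higher after 16 h of paclitaxel, 3 were higher and 4 lower after 48 h, 5 higher after 2 h and 4 after 16 h of celecoxib, 10 higher in the combination against celecoxib, 4 higher and 2 lower at 48 against 16 h of paclitaxel, and 1 higher and 2 lower at 16 against 2 h of celecoxib. With a pseudocount of 1, 5 were lower after 16 h of paclitaxel, 1 higher and 4 lower after 48 h, 4 higher after 16 h of celecoxib, 1 lower in the combination against paclitaxel, and 2 higher and 1 lower at 48 against 16 h of paclitaxel. With medians 1 was lower after 48 h of paclitaxel and 2 were higher at 48 against 16 h. In single blocks of sequencing numbers 1 was lower after 48 h of paclitaxel, 0 lower in the combination, and 1 lower at 48 against 16 h of paclitaxel. The other 75 counts stayed within 1.5 times. Of the 90 differences of single genes, 19 changed sign at the same total, most of them within the limit on both scales, and over the other alternatives 18 of 439 values did. Over all alternatives 59 values moved past the limit and 24 moved inside it in the same direction. With an E-value above 1 as detection, 43 of 60 shares of cells moved beyond their interval. The median coefficients of SLC3A2 with its 3 light chains stayed positive at the same total, while SLC7A6 after 16 h of celecoxib went from a Spearman's rho of 0.033 to -0.070. The cause of these changes was not tested.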
